A study of Rattus norvegicus with 30 samples.

Results

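The genes of the receptor complex for BMP9 were examined in CD31+ cells of the rat lung. They are Acvrl1, Eng, Bmpr2, Bmpr1a, Acvr1, Acvr2a and Acvr2b, chosen by name as BMP type I receptors, type II receptors and a co-receptor. These 7 genes each have 1 row among the 30562 rows of the table, and all 7 passed the filter on low counts that left 16171 genes for testing. The cells were sorted with microbeads from the lungs of wild-type rats 3 weeks after surgery. The sham-operated animals formed 3 groups, on a Vitamin A control diet, a Vitamin A deficient diet or a Vitamin A excess diet, and the animals with Glenn surgery formed 3 groups on the same diets. Each of the 6 groups had 5 libraries (30 in all). Glenn surgery joins a large vein of the upper body to the pulmonary artery, so that the connected lung receives blood that has not come straight from the liver. The labels give no strain, age or sex, do not say which lung was taken, and do not say whether each library is 1 animal, so p-values measure the spread between these libraries, which may be partly technical.

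BMP9, made mainly by the liver, circulates in blood and signals to endothelial cells. It binds the type I receptor ALK1, the product of Acvrl1, together with a type II receptor (the products of Bmpr2, Acvr2a and Acvr2b can serve), and endoglin, the product of Eng, is the co-receptor that helps to load the ligand. The active complex phosphorylates SMAD1, SMAD5 and SMAD9, which switch on genes such as the ID family and SMAD6. Loss-of-function mutations of ACVRL1 and ENG underlie hereditary haemorrhagic telangiectasia, a disease of arteriovenous malformations, and those of BMPR2 underlie heritable pulmonary arterial hypertension. The products of Bmpr1a (ALK3) and Acvr1 (ALK2) are type I receptors that mainly take other BMP ligands.

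Sequences just before the start of the gene are shown for Eng and Bmpr2, which fell together after Glenn surgery, and for Bmpr1a, which was higher in the average over diets. RefSeq's promoter table for the rat (build GRCr8, which is not the build of the count table) held 5 of the 7 genes, with no entry for Acvrl1 or Acvr1. Each sequence is the 250 bases before the listed start, 5′ to 3′ on the gene's own strand. The Eng stretch is chr3:36332029-36332278 on the plus strand, the Bmpr2 stretch chr9:68686566-68686815 on the plus strand and the Bmpr1a stretch chr16:9786862-9787111 on the minus strand. Capitals mark GGAA or its reverse complement TTCC, the core of the ETS factor motif, as ETS factors are widely used in endothelial promoters.
Eng: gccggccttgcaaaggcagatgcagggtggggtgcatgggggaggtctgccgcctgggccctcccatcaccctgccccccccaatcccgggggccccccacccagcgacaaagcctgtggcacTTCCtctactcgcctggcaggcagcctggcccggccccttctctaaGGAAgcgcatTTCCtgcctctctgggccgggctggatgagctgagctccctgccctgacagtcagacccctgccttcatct
Bmpr2: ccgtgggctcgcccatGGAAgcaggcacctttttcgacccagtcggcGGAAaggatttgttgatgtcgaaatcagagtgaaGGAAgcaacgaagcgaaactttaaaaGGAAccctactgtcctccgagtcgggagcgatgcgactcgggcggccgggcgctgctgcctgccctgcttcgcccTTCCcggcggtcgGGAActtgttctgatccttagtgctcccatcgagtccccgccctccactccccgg
Bmpr1a: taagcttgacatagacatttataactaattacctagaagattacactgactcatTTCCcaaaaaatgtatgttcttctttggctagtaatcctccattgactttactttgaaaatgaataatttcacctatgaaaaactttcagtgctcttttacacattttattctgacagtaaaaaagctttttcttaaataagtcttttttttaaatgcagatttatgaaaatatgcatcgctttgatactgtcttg
Eng held 3 matches of GGAA on either strand, Bmpr2 held 6 and Bmpr1a held 1. Acvr2a and Acvr2b, whose stretches are not shown and which were both lower in the average over diets, held 6 and 1. The count thus did not divide lower from higher genes. For each gene the first RefSeq entry listed was used. Among 33469 RefSeq stretches of the same length, 93.2% held at least 1 match and the median was 3. The KLF box CACCC (or GGGTG) occurred 4 times before Eng and 0 times before Bmpr2 and Bmpr1a, against 49.2% of all stretches with a match. The SMAD box GTCT (or AGAC) occurred 2 times before Eng, 0 times before Bmpr2 and 3 times before Bmpr1a, against 84.0% of all stretches. The GC-rich SMAD site GGCGCC was in none of the 3, against 8.69% of all stretches. GC content was 68.0% for Eng, 61.2% for Bmpr2 and 28.4% for Bmpr1a, with a median of 51.2% over all stretches. These matches describe letters in a window and were not tied to binding or to the expression values.

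Total estimated counts ran from 22.03 M to 77.6 M per library (M, mega), with a median of 40.0 M. Expression is given as CPM, counts scaled by TMM to a library total of 1 M, which is not corrected for gene length, so levels are compared between samples and never between genes. The library names fall into a lower number range (22 libraries) and a higher one (8 libraries), and the labels do not say what the numbers stand for. The higher range was found only in both deficient-diet groups (3 sham and 2 Glenn libraries) and in the Glenn excess group (3 libraries), so the range entered the fit as a term. The major histocompatibility gene RT1-CE16 was above 100 CPM in 13 libraries and below it in 17, with 0 high libraries in the sham excess group and 2 or 3 in each other group. Reads of RT1-CE16 can be shared with similar RT1 genes. All 8 libraries of the higher range were among the 13. On the deficient and excess diets the lower-range libraries are therefore the same ones as the libraries low in RT1-CE16. The endothelial genes Pecam1 and Cdh5 were abundant in every library (at least 863 and 1557 CPM). Other lineages were present too: Sftpc, of type II alveolar cells, stood at 15062 to 36185 CPM. Of the leukocyte genes, Cd3e and S100a8 were at 0 to 1.31 and 0 to 0.813 CPM. Ptprc was at 0.569 to 18.9 CPM, Cd68 at 2.50 to 9.45 CPM and Cd79a at 0.208 to 8.74 CPM. Lyz2, on the same list, stood at 8030 to 24447 CPM, and which cells its counts came from was not tested.

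The type I receptor ALK1, the co-receptor endoglin and the type II receptor BMPR2 form the core of the complex, and their genes showed the largest differences among the 7. Averaged over the diets, Acvrl1, Eng and Bmpr2 fell after Glenn surgery by 1.39, 1.45 and 1.30 on the log2 scale, to 0.381, 0.367 and 0.405 of the sham level. For each of these 3 genes all 15 Glenn libraries lay below all 15 sham libraries. That separation was met by 2.73% of all tested genes, counting genes with lower Glenn values. In a bulk sample, fewer cells of a type and less RNA per cell cannot be told apart.

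Acvrl1 (ENSRNOG00000028713) encodes ALK1. On the control diet it stood at 1649.8, 1654, 1943, 1925 and 1830.4 CPM in the 5 sham libraries and at 619, 762, 482, 484 and 473 CPM in the 5 Glenn libraries, in the order of the replicate numbers. On the deficient diet the sham libraries held 1728, 1599.9, 1484, 1659 and 1663 CPM and the Glenn libraries 795, 611, 592, 562 and 589.6 CPM. On the excess diet the sham libraries held 1784, 1746, 1603, 1691 and 1738 CPM and the Glenn libraries 1042, 739.6, 583, 676 and 653 CPM. The groups did not overlap on any diet (separation with Glenn lower was met by 9.41%, 9.59% and 7.75% of tested genes on the control, deficient and excess diet), and the library nearest to the sham range was replicate 1 of the Glenn excess group. In order of their means, the groups ran from sham control (1800.4 ± 142 CPM) through sham excess (1712 ± 69.3) and sham deficient (1627 ± 91.6) to Glenn excess (739 ± 179), Glenn deficient (629.9 ± 93.9) and Glenn control (564 ± 126; SD, n = 5 each). The step between sham deficient and Glenn excess was the only one between neighbours without overlapping libraries. The log2 change was -1.67 on the control diet (SE 0.12, edgeR quasi-likelihood test, adjusted p 1.39e-11), -1.43 on the deficient diet (SE 0.12, adjusted p 4.17e-10) and -1.08 on the excess diet (SE 0.13, adjusted p 3.71e-07).

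Eng (ENSRNOG00000050190) encodes endoglin. On the control diet the sham libraries had 2261, 2684, 2730.4, 2231 and 2093 CPM and the Glenn libraries had 882, 807, 631, 676 and 587 CPM. On the deficient diet the levels were, in the same order, 2200.0, 2234, 1599, 2109.7 and 1999 CPM against 1048, 782, 762, 801 and 756 CPM. On the excess diet they were 2449, 2381, 2445, 2349.9 and 2542 CPM against 1329.9, 908, 749, 782 and 821 CPM. Again no diet had overlapping groups, and replicate 1 of the Glenn excess group, at 1330 CPM, came nearest to the lowest sham library, replicate 3 of the deficient diet, at 1599 CPM. The group means ran from sham excess (2434 ± 73.8 CPM) and sham control (2400 ± 288) to sham deficient (2028 ± 257), then to Glenn excess (918 ± 238), Glenn deficient (830 ± 124) and Glenn control (717 ± 124; SD, n = 5 each). Within either surgery the libraries of neighbouring groups in this order overlapped. The log2 change was -1.74 on the control diet (SE 0.12, adjusted p 7.4e-12), -1.35 on the deficient diet (SE 0.12, adjusted p 1.17e-09) and -1.25 on the excess diet (SE 0.13, adjusted p 3.45e-08).

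Bmpr2 (ENSRNOG00000022196) encodes the type II receptor most used with ALK1. On the control diet it was counted at 558, 607, 809, 640.4 and 673 CPM in the sham libraries against 280.1, 262, 186, 255 and 229 CPM in the Glenn libraries. On the deficient diet the sham libraries held 666, 591, 621, 616 and 568 CPM against 278, 216, 248, 257 and 253 CPM. On the excess diet they held 578, 686, 698, 657 and 659 CPM against 322, 283, 284, 289 and 240.2 CPM. The highest Glenn value over all diets, 322 CPM, was well under the lowest sham value, 558 CPM. From the control through the deficient to the excess diet, the sham means were 658 ± 94.7, 612 ± 36.8 and 655 ± 46.8 CPM and the Glenn means 242 ± 36.5, 251 ± 22.2 and 284 ± 29.0 CPM (SD, n = 5 each). The log2 change was -1.44 on the control diet (SE 0.10, adjusted p 8.92e-12), -1.30 on the deficient diet (SE 0.10, adjusted p 8.74e-11) and -1.17 on the excess diet (SE 0.11, adjusted p 5.67e-09).

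**Figure D1:**
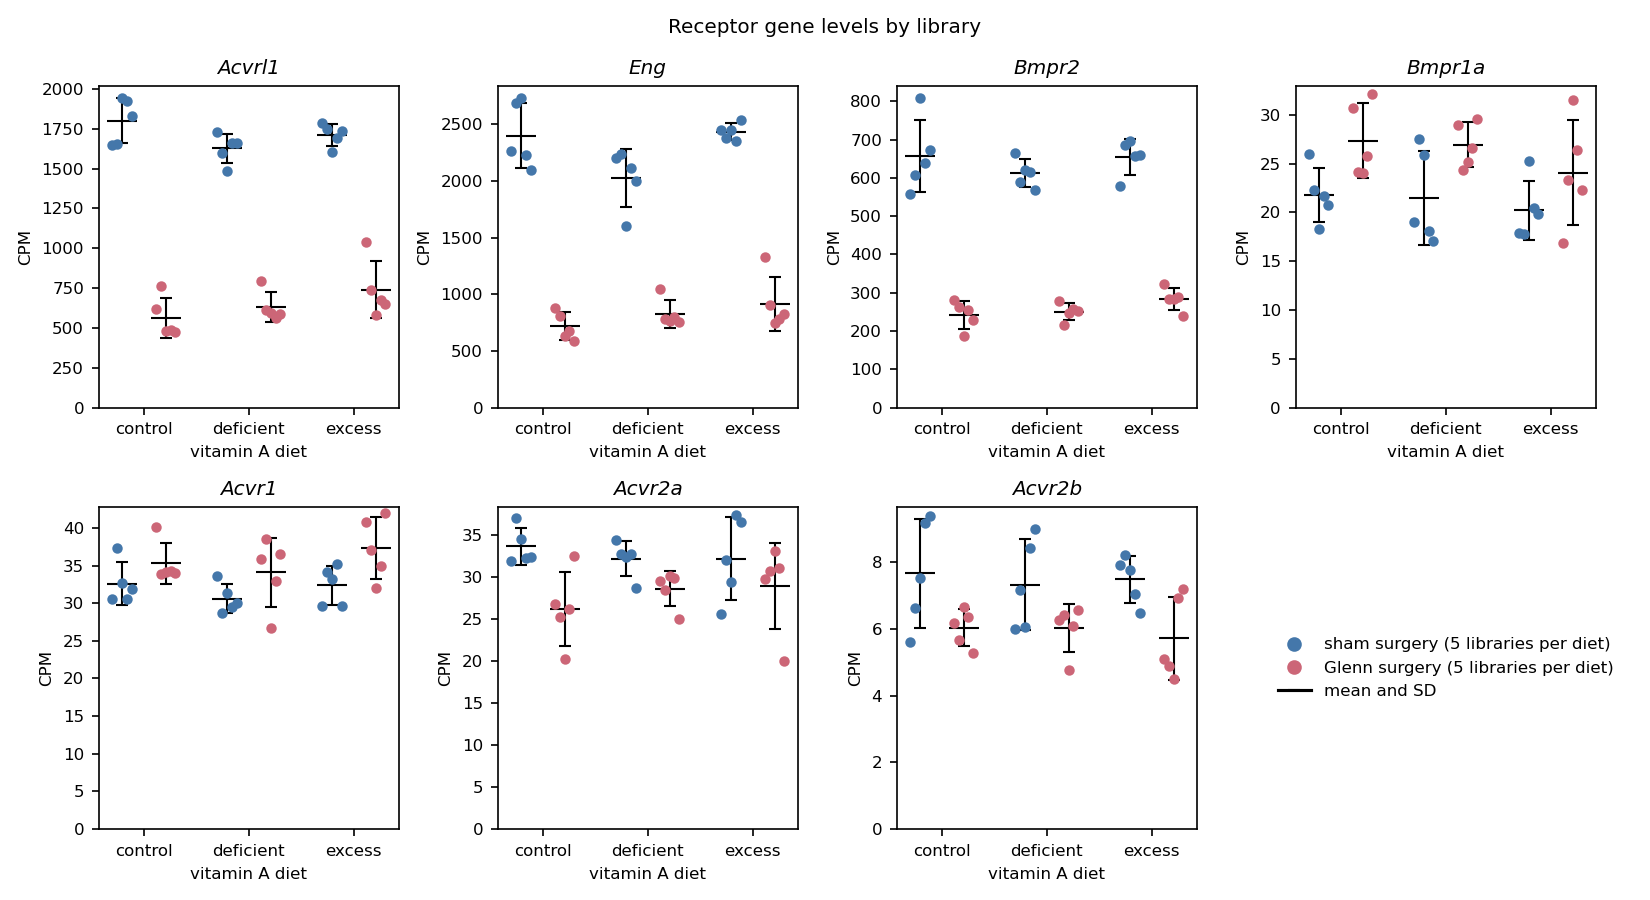
Level of each of the 7 receptor genes in CPM (vertical axis, from 0) in the 30 libraries, by vitamin A diet (horizontal axis) and surgery (blue sham, red Glenn), with the mean and SD of 5 libraries in black. In Acvrl1, Eng and Bmpr2 the red points lie below all blue points, whereas in the other 4 genes the colours overlap on every diet.

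The other type I receptor genes were higher, not lower, after Glenn surgery when averaged over the diets. Bmpr1a (ENSRNOG00000052469), for ALK3, ran from 17.1 to 27.5 CPM over the 15 sham libraries and from 16.8 to 32.2 CPM over the 15 Glenn libraries. Of the Glenn libraries, 5 lay above the highest sham library and 1 below the lowest, and the groups overlapped on each diet. Its averaged log2 change was 0.28 (SE 0.09, adjusted p 0.00697). By diet the values were 0.33 on control, 0.34 on deficient and 0.18 on excess, none of them past the threshold (adjusted p 0.0965, 0.0814 and 0.484). In the lower number range alone the averaged value was 0.17 and no longer passed (adjusted p 0.168), and among the libraries low in RT1-CE16 it was 0.10 (adjusted p 0.508).

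Acvr1 (ENSRNOG00000005033), for ALK2, ran from 28.7 to 37.4 CPM after sham and from 26.7 to 41.9 CPM after Glenn surgery. The Glenn libraries had 4 values above the sham range and 1 below it, so the groups largely shared their range. Its averaged log2 change was 0.16 (SE 0.05, adjusted p 0.0117). By diet, 0.11 on control, 0.15 on deficient and 0.23 on excess did not pass (adjusted p 0.398, 0.241 and 0.106). Among the libraries low in RT1-CE16 the averaged value was again 0.16 but did not pass (adjusted p 0.146).

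The alternative type II receptor genes were lower after Glenn surgery, by much less than Bmpr2. Acvr2a (ENSRNOG00000005334), for the activin receptor ActRIIA, ran from 25.6 to 37.4 CPM after sham and from 20.02 to 33.0 CPM after Glenn surgery, with 4 Glenn libraries below the sham range. Its averaged log2 change was -0.21 (SE 0.07, adjusted p 0.00972). On the control diet it fell by 0.36 (SE 0.12, adjusted p 0.0203), where 4 of the 5 Glenn libraries lay below all sham libraries. That call was lost when sham control replicate 2 or 3 or Glenn control replicate 3 or 4 was left out (adjusted p 0.0516 to 0.0775). On the deficient and excess diets the values were -0.19 and -0.09 (adjusted p 0.246 and 0.665).

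Acvr2b (ENSRNOG00000014477), for ActRIIB, was the least counted of the 7, at 5.601 to 9.39 CPM after sham and 4.49 to 7.19 CPM after Glenn surgery. Of the Glenn libraries 5 lay below the sham range and none above it. Its averaged log2 change was -0.37 (SE 0.09, adjusted p 0.00083). It passed on the excess diet (-0.53, SE 0.17, adjusted p 0.0216) but not on the control (-0.35, adjusted p 0.0894) or deficient diet (-0.23, adjusted p 0.275). The excess-diet call was lost without Glenn excess replicate 1 or 2 (adjusted p 0.0551 and 0.0755) and in the lower number range alone (-0.57, adjusted p 0.0563). It was also lost with no term for the range (-0.39, adjusted p 0.0623), with only the compared groups fitted (-0.58, adjusted p 0.102) and with marker scores as covariates (-0.28, adjusted p 0.845). Among the libraries low in RT1-CE16 the averaged value was -0.24 (adjusted p 0.102).

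Counted together, all 7 genes passed the test averaged over diets, 2 higher and 5 lower, where 48.2% of all tested genes passed (23.4% higher and 24.7% lower). The median log2 change of the 7 was -0.37, against -0.01 over all tested genes. On the control diet 4 genes passed, all lower, with a background of 24.9% (13.1% lower). On the deficient diet 3 passed, all lower, with a background of 27.4% (13.7% lower), and on the excess diet 4 passed, all lower, with a background of 21.9% (10.4% lower). Acvrl1, Eng and Bmpr2 were lower in each of the 3 diets, as were 6.46% of all tested genes. By the size of the averaged change these 3 genes stood among the lowest 1.79% of tested genes, while the other 4 stood between the lowest 14.4% and 77.6%.

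**Figure D2:**
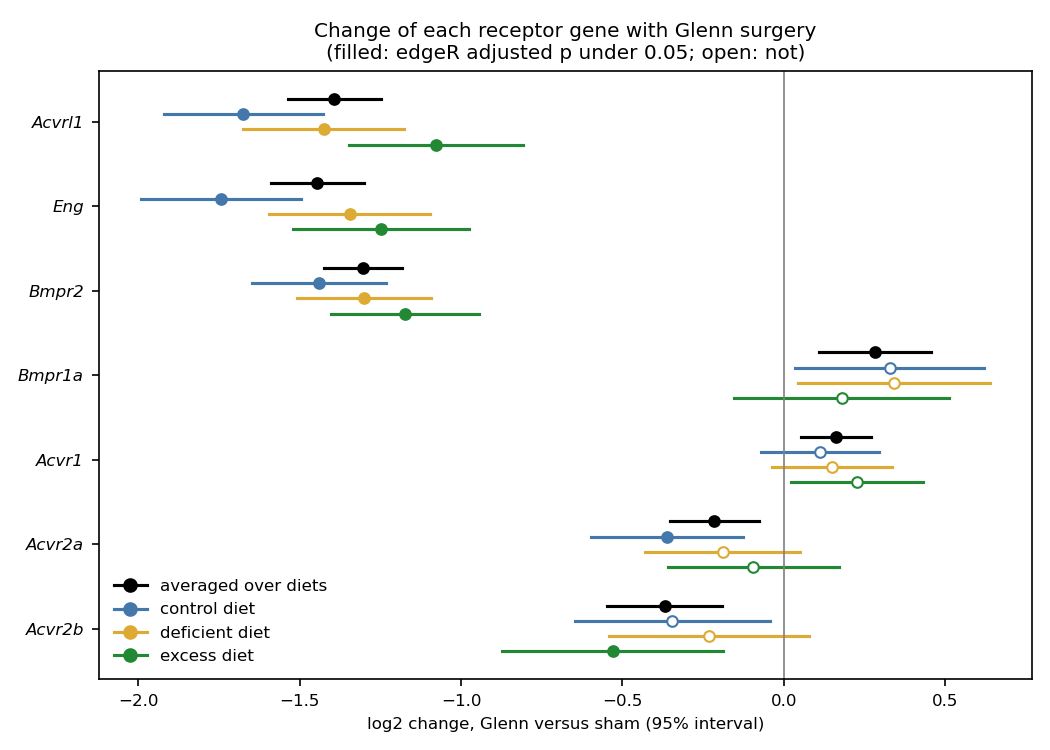
Log2 change with Glenn surgery (horizontal axis; points, with 95% intervals as lines) for each of the 7 genes, averaged over diets (black) and on the control, deficient and excess diets (blue, yellow, green). Filled points passed the edgeR test. Acvrl1, Eng and Bmpr2 lie between -1.74 and -1.08, and the other 4 genes between -0.53 and 0.34.

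The falls of the 3 core genes were also present within the library number ranges. In the lower range alone the averaged log2 changes were -1.30 for Acvrl1, -1.40 for Eng and -1.29 for Bmpr2. In the higher range, where only the deficient diet has both surgeries (3 sham and 2 Glenn libraries), they were -1.47, -1.29 and -1.23. All 3 passed the edgeR test (adjusted p 5.1e-05, 0.00029 and 6.7e-05), in a fit where 2274 genes passed in all. Among the libraries low in RT1-CE16 they were -1.22, -1.38 and -1.23.

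Marker genes of other cell types moved with surgery as well. All 10 mural markers, such as Acta2 and Myh11 of smooth muscle, were higher after Glenn surgery, and their summed level ran from 167 to 342 CPM after sham and from 493 to 1713 CPM after Glenn surgery. All 6 lymphatic markers were higher (sum 1010.1 to 1942 CPM and 2286 to 4957 CPM), and all 6 fibroblast markers were higher (319 to 806 CPM and 586 to 1226 CPM). All 6 type II alveolar markers were lower. Of the 5 markers of general capillary cells 4 were lower, and their sum went from 5868 to 8885 CPM after sham to 2290.5 to 5411 CPM after Glenn surgery. Plvap made up much of that sum, at a mean of 5149 CPM in sham and 1563 CPM in Glenn libraries (log2 change -1.69). The others were at -3.26 for Glp1r, -0.32 for Aplnr and -0.20 for Cd93, and Gpihbp1 did not pass (0.10, edgeR adjusted p 0.502). Of the 5 markers of aerocytes, the other capillary type, 3 were lower and 1 higher (921 to 1571 CPM and 385 to 641 CPM). Of the 8 pan-endothelial markers 4 were lower and 3 higher (6988 to 9024 CPM and 5363 to 7720 CPM). None of the markers with a row was at 0 in all libraries, and only Cd3e, S100a8, Alas2 and Slc4a1 of blood cells and 1 of 2 rows of Rtkn2, of type I alveolar cells, were at 0 in any. With mural, endothelial and aerocyte scores as covariates, Acvrl1, Eng and Bmpr2 still passed, at -1.26, -1.47 and -1.17 (adjusted p 0.00014, 8.7e-06 and 0.00015). In that fit Bmpr1a, Acvr1, Acvr2a and Acvr2b did not pass (0.29, 0.26, -0.18 and -0.12), and 865 genes passed in all. The mural score, the mean log2(CPM + 1) of its list, did not overlap between surgeries. It was at most 4.61 after sham and at least 4.88 after Glenn surgery, so this fit cannot separate surgery from that score. The general capillary score was not among the covariates, and it did not overlap either (at least 9.31 after sham, at most 9.08 after Glenn surgery). The part of the other lists in the results was not tested.

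Ratios of 2 genes within a library cancel scaling and show whether their changes were unequal. Each was compared between 5 sham and 5 Glenn libraries per diet by a two-sided exact permutation test, for 21 ratios on 3 diets, with adjustment over the 63 combinations, and 37 passed. The smallest p that 5 libraries against 5 can give is 0.00794, and the smallest adjusted p here was 0.0147. As the endothelial references, Cdh5 itself fell by 0.25 in the average over diets (SE 0.06, edgeR adjusted p 0.00036), and Pecam1 differed by -0.16 without passing (adjusted p 0.0692), with the sign turned in the lower number range (0.014) and in the libraries low in RT1-CE16 (0.094). Relative to Cdh5, an endothelial cadherin, the change was -1.27 to -1.10 for Acvrl1, -1.33 to -1.10 for Eng and -1.10 to -1.02 for Bmpr2 over the diets. Relative to Pecam1, the gene of CD31 itself, it was -1.40 to -1.14, -1.58 to -1.05 and -1.35 to -1.05. Each of these 18 combinations had no overlap between surgeries and the adjusted p of 0.0147. The share of all tested genes that separate in this way relative to Cdh5 or Pecam1 was not taken. Nor was a share taken for any other ratio, so how unusual these separations are was not tested. In the lower number range alone the direction of each was the same, and 12 of the 63 combinations passed. Of the ratios given here none passed on the deficient diet (2 sham and 3 Glenn libraries) or the excess diet (5 and 2). With so few libraries and this adjustment, no ratio on these diets could have passed whatever its values. The lack of a pass there therefore says nothing about the ratios.

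Among the type I receptors, the log2 ratio of Acvrl1 to Acvr1 fell from 5.79 ± 0.20 to 3.98 ± 0.30 on the control diet (SD, n = 5 each), and its change over the diets was -1.81 to -1.44. The ratio of Acvrl1 to Bmpr1a changed by -2.02 to -1.47. Among the type II receptors, the ratio of Bmpr2 to Acvr2a changed by -1.12 to -1.05 and that of Bmpr2 to Acvr2b by -1.12 to -0.80. These 4 ratios had separate libraries on every diet, with the adjusted p of 0.0147 in the exact permutation test. The ratios moved mostly with Acvrl1 and Bmpr2, whose averaged log2 changes were -1.39 and -1.30. Acvr2a and Acvr2b were themselves lower (-0.21 and -0.37). Bmpr1a and Acvr1 were higher by 0.28 and 0.16 in the average, and neither passed on a single diet.

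The 3 core genes kept closer to each other. The log2 ratio of Eng to Acvrl1 differed by -0.05 on the control diet, 0.09 on the deficient diet and -0.20 on the excess diet. Only the excess-diet difference passed, with 0.51 ± 0.07 after sham and 0.31 ± 0.06 after Glenn surgery (SD, n = 5 each; exact permutation, adjusted p 0.0147). The ratio of Acvrl1 to Bmpr2 differed by -0.26 on control, -0.09 on deficient and -0.03 on excess, none past the threshold (adjusted p 0.122, 0.489 and 0.883). The ratio of Acvr2a to Acvr2b passed on 0 of 3 diets.

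**Figure D3:**
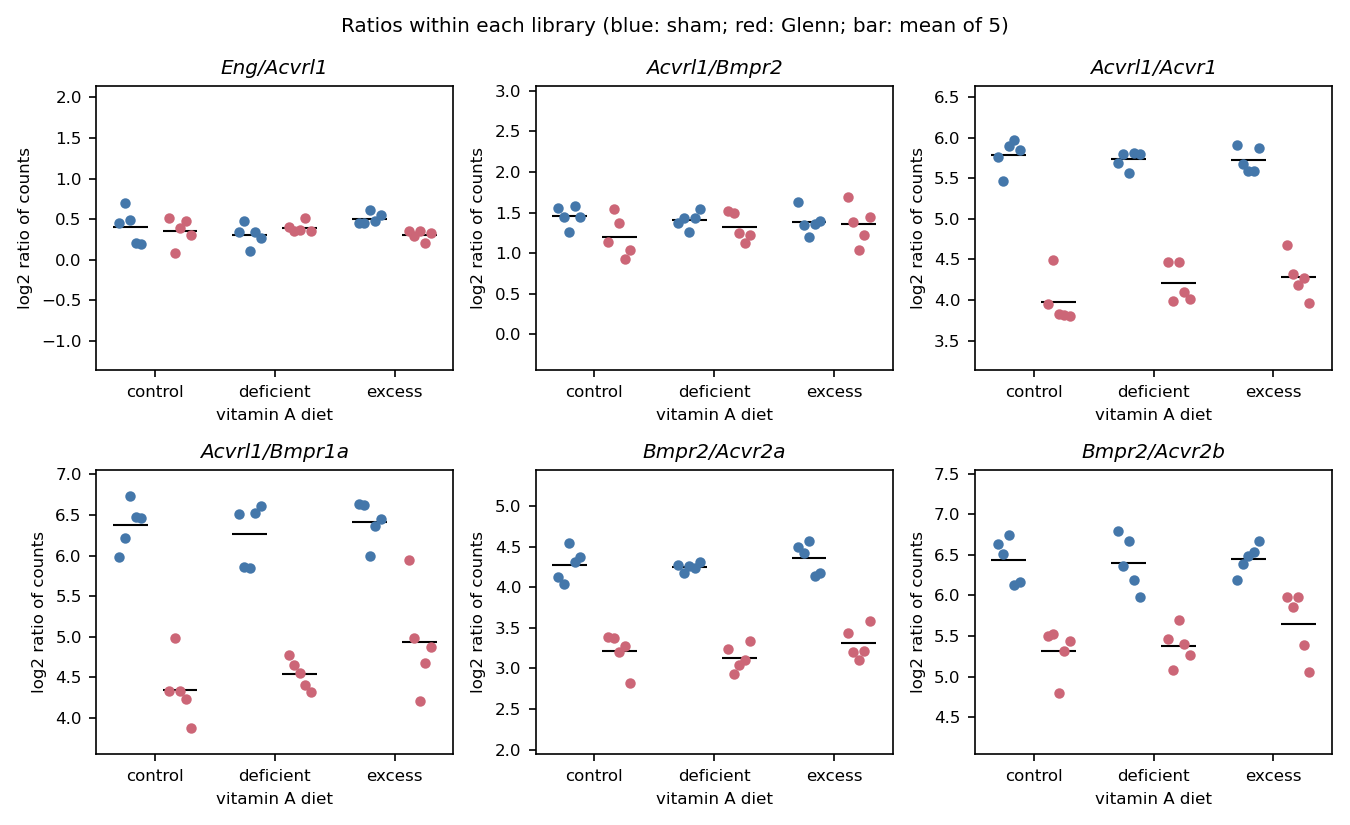
Log2 ratio of the counts of a pair of genes in each library (vertical axis; all panels span 3.5 log2 units) by diet and surgery (blue sham, red Glenn, bars the means of 5). The ratios of Eng to Acvrl1 and Acvrl1 to Bmpr2 overlap between surgeries, apart from Eng to Acvrl1 on the excess diet, while the 4 ratios of core to alternative receptors separate on every diet.

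The design also asks whether vitamin A in the diet alters these genes. After sham surgery, none of the 7 passed in any of the 3 comparisons between diets (edgeR, 0 genes at an unadjusted p under 0.05, and 0 by DESeq2), and the log2 differences ran from -0.21 to 0.17. The edgeR background at the adjusted threshold was 0.241% for excess against control, 0% for deficient against control and 0.0124% for excess against deficient. No share over all genes was taken at the unadjusted p. DESeq2 called 211, 15 and 13 genes in these comparisons.

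After Glenn surgery, the excess diet went with higher Acvrl1 and Eng than the control diet. Acvrl1 stood at 739 ± 179 against 564 ± 126 CPM (SD, n = 5 each), a log2 difference of 0.52 (SE 0.13, adjusted p 0.0344), and Eng at 918 ± 238 against 717 ± 124 CPM, also 0.52 (SE 0.13, adjusted p 0.0389). These 2 of the 7 genes compare with a background of 1.47% (0.89% higher), and the libraries of the groups overlapped in both genes. Bmpr2 was higher by 0.26 (95% interval 0.04 to 0.49) without passing (adjusted p 0.259), and the other 4 genes had adjusted p of 0.522 to 0.716. The Glenn excess group holds 3 libraries of the higher number range and the Glenn control group none. Within the lower range, with 2 excess libraries, the differences were 0.65 and 0.64 and passed (adjusted p 0.0385 and 0.0389). With no term for the range they were 0.39 and 0.36 and did not pass (adjusted p 0.228 and 0.312). Neither gene passed with the RT1-CE16 level as the term (0.42 and 0.40), with marker scores as covariates (0.34 and 0.32), or when only the compared groups were fitted (0.63 and 0.61). Leaving out Glenn control replicate 3, 4 or 5 or Glenn excess replicate 1, 2 or 4 also left 0 of the 7 past the threshold, and without Glenn deficient replicate 1 only 1 passed. Over all single libraries left out, the difference ran from 0.34 to 0.66 for Acvrl1 and from 0.33 to 0.60 for Eng.

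The deficient diet gave no call against control after Glenn surgery (0 of 7 by edgeR and by DESeq2). The background was 0.00618% by edgeR at the adjusted threshold, and DESeq2 called 63 genes. By edgeR 2 of the 7 had an unadjusted p under 0.05, for which no share over all genes was taken. Acvrl1 differed by 0.26 and Eng by 0.33 (adjusted p 0.498 and 0.354). Excess against deficient also gave 0 of 7 by edgeR and by DESeq2, with a background of 0% by edgeR at the adjusted threshold and 6 genes by DESeq2. By edgeR 1 of the 7 had an unadjusted p under 0.05, again with no share over all genes. The change with surgery itself was not shown to differ between diets. The test of the interaction of surgery and diet passed for 0 of 7 genes by edgeR (background 0.00618%) and by DESeq2 (35 genes in all). By edgeR the unadjusted p was 0.00755 for Acvrl1 and 0.0162 for Eng (adjusted p 0.694 and 0.758). The change on the excess diet minus that on the control diet was 0.60 for Acvrl1 (95% interval 0.24 to 0.96, adjusted p 0.315), 0.50 for Eng (95% interval 0.14 to 0.86, adjusted p 0.418) and 0.27 for Bmpr2 (95% interval -0.04 to 0.57, adjusted p 0.739), against a background of 0.0186%.

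Libraries of 1 surgery also varied together in some of these genes. Each pair of the 7 was correlated across the 15 libraries of a surgery after removing the diet-group means, with permutation of 100000 draws within groups and adjustment over 42 pairs, of which 2 passed. After Glenn surgery, Acvrl1 and Eng had a Pearson r of 0.92 and a Spearman rho of 0.84 (permutation, adjusted p 0.0256 and 0.0244), with the libraries highest in one also highest in the other. With the number range removed as well, r was 0.88. Without the 2 libraries farthest from the median of Acvrl1, r was 0.92, although no pair then passed after adjustment. After sham surgery the same pair had an r of 0.31 (permutation, adjusted p 0.597), and the difference between surgeries was not tested.

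After sham surgery, Acvrl1 and Bmpr1a varied in opposite directions, with an r of -0.74 and a rho of -0.77 (permutation, adjusted p 0.0256 and 0.043). Without the 2 libraries farthest from the median, r was -0.63. Across the same sham libraries Bmpr1a had an r of 0.86 with the score of the type II alveolar markers (permutation, adjusted p 0.00364 over 182 relations of members and marker scores, a comparison added after the data had been seen; rho 0.82, adjusted p 0.0722). Without the 2 farthest libraries that r was 0.81, and after Glenn surgery it was 0.28. Bmpr1a had an r of -0.71 with the score of the endothelial markers after sham surgery (permutation, adjusted p 0.193). The part of other cell types in the level of Bmpr1a was not tested further.

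**Figure D4:**
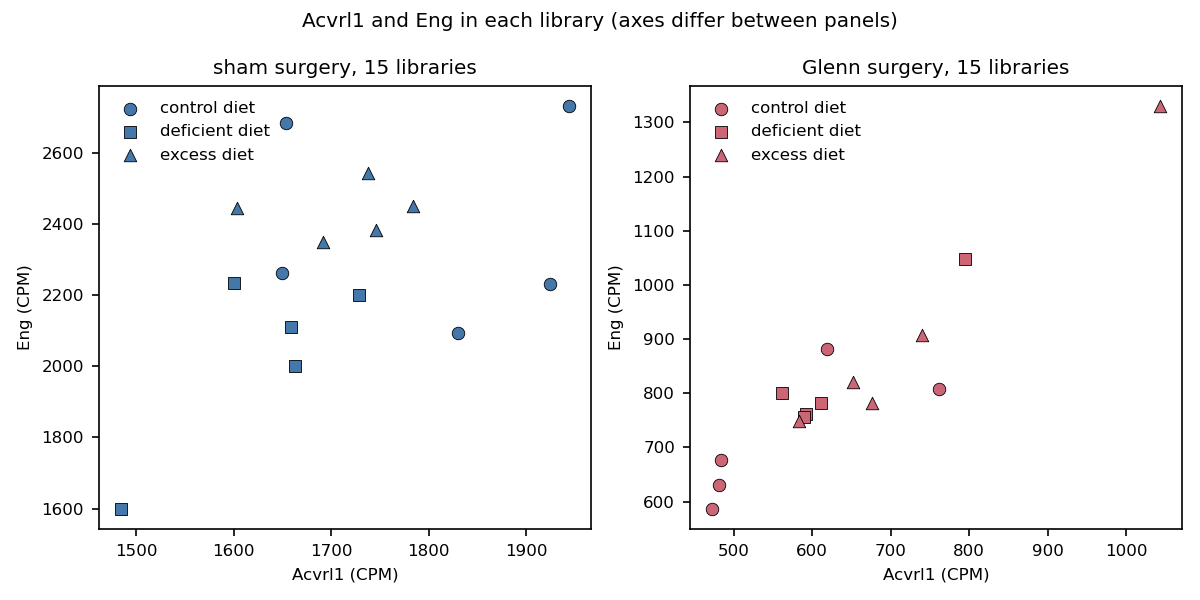
Eng against Acvrl1 in CPM in each library after sham (left, blue) and Glenn surgery (right, red), with the diet given by the marker shape and different axis ranges in the panels. After Glenn surgery the points rise together from the control-diet library at 473 CPM of Acvrl1 to the excess-diet library at 1042 CPM.

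The genes whose deviations from the group means were most like those of each receptor gene were read from 9351 genes averaging 10 CPM or more over the 30 libraries. For Acvrl1 they were Tmt1a (r 0.90), Plvap (0.85) and Slc3a2 (0.81), the last with r of 0.92 in the Glenn and 0.34 in the sham libraries. For Eng they were Plvap (0.95), the inhibitory SMAD gene Smad6 (0.83) and the endothelial phosphatase gene Ptprb (0.82). Plvap encodes a protein of endothelial fenestrae and is on the list of general capillary markers. For Bmpr2 they were the receptor gene Calcrl (0.82), Tmcc3 (0.81) and the hypoxia factor gene Epas1 (0.81). For Bmpr1a they were Mal2 (0.87), the epithelial cadherin gene Cdh1 (0.83) and Phaf1 (0.83). For Acvr1 the most alike were Chsy1 (0.72), Jag2 (0.69) and Ybx3 (0.67). Within the Glenn libraries r was 0.83 for Chsy1, 0.86 for Jag2 and 0.84 for Ybx3, and within the sham libraries it was 0.40, 0.06 and -0.004. For Acvr2a they were Fhip1a (0.82), Gak (0.77) and Thada (0.76), and for Acvr2b Nfib (0.73), Prpf19 (0.73) and Fem1a (0.71). These are the highest of many correlations and describe the libraries only.

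The counts for the other genes of the pathway are for the average over diets and stand against the share of all tested genes that passed there, 48.2% (23.4% higher, 24.7% lower), and a median of -0.01. Of 16 ligands and ligand antagonists tested 5 were higher, 5 lower and 6 did not pass, with a median log2 change of -0.09. Gdf2, the gene of BMP9, averaged 2.18 ± 0.94 CPM in sham against 1.89 ± 1.27 CPM in Glenn libraries (SD, n = 15 each) and did not pass (adjusted p 0.468). Bmp6, a ligand made by endothelial cells, fell from 386 ± 46.1 to 218 ± 33.0 CPM (log2 change -0.79, SE 0.06, adjusted p 9.57e-13). Mgp, which binds BMPs outside the cell, rose from 88.7 ± 12.9 to 281 ± 68.7 CPM (1.70, SE 0.09, adjusted p 6.98e-15). The antagonist Nog, low throughout, fell from 3.79 ± 0.72 to 0.96 ± 0.36 CPM (-1.96, SE 0.15, adjusted p 4.39e-12).

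Of 14 other receptors and co-receptors of the family 12 could be tested, and 4 were higher, 6 lower and 2 not past the threshold (median 0.02). The TGF-beta type II receptor gene Tgfbr2 rose from 469.8 ± 33.3 to 723 ± 83.8 CPM (log2 change 0.61, SE 0.05, adjusted p 3.66e-11), the direction opposite to that of Bmpr2. The co-receptor genes Nrp1 and Nrp2 went in opposite directions, at -0.74 (SE 0.06, adjusted p 1.91e-11) and 0.62 (SE 0.08, adjusted p 9.24e-08). With marker scores as covariates these 3 did not pass (0.55, -0.40 and 0.82; adjusted p 0.0553, 0.19 and 0.0692).

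Of the 6 SMAD signal transducers 4 were higher, 1 lower and 1 not past the threshold (median 0.21). Smad1, which ALK1 phosphorylates, rose from 82.2 ± 4.69 to 313 ± 57.7 CPM (log2 change 1.89, SE 0.07, adjusted p 2.96e-19). Smad9, a transducer of the same class, fell by 0.91 (SE 0.09, adjusted p 7.32e-10), and Smad3, a transducer of TGF-beta and activin, rose by 0.77 (SE 0.10, adjusted p 1.09e-07). Under marker scores as covariates Smad9 and Smad3 did not pass (-0.57 and 0.54; adjusted p 0.316 and 0.376).

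Of 14 genes listed as targets of BMP9 and ALK1, 9 were lower, 4 higher and 1 not past the threshold (median -0.46), beside 24.7% lower and 23.4% higher among all tested genes. Smad6 fell by 2.90 (SE 0.11, adjusted p 5.63e-18), Tmem100 by 2.28 (SE 0.10, adjusted p 1.31e-16) and Id1 by 1.43 (SE 0.07, adjusted p 9.19e-17) on the log2 scale. The 4 that were higher, named after their values were seen, were Hey1 (0.39), Hes1 (0.25), Dll4 (0.37) and Gja5 (0.39). Hey1 and Hes1 encode transcriptional repressors, Dll4 a ligand of Notch, and Gja5 a gap junction protein. Of other genes of the list, the gap junction gene Gja4 was lower (-0.54, adjusted p 0.000312), and Hey2 did not pass (0.16, adjusted p 0.327). Gja5 itself was at -0.32 on the control diet without passing (adjusted p 0.2).

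Of 17 genes for partners and turnover of the receptors 6 were higher, 7 lower and 4 not past the threshold (median -0.005). Smurf2, a ubiquitin ligase that acts on these receptors, fell from 153 ± 11.3 to 73.3 ± 9.33 CPM (log2 change -1.04, SE 0.05, adjusted p 5.8e-16). Mmp14, the protease that sheds endoglin from the cell surface, rose from 46.2 ± 7.28 to 96.1 ± 13.7 CPM (1.05, SE 0.06, adjusted p 3.93e-15). Emilin1, an extracellular protein that limits TGF-beta maturation, rose by 1.52 (SE 0.10, adjusted p 2.35e-13).

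**Figure D5:**
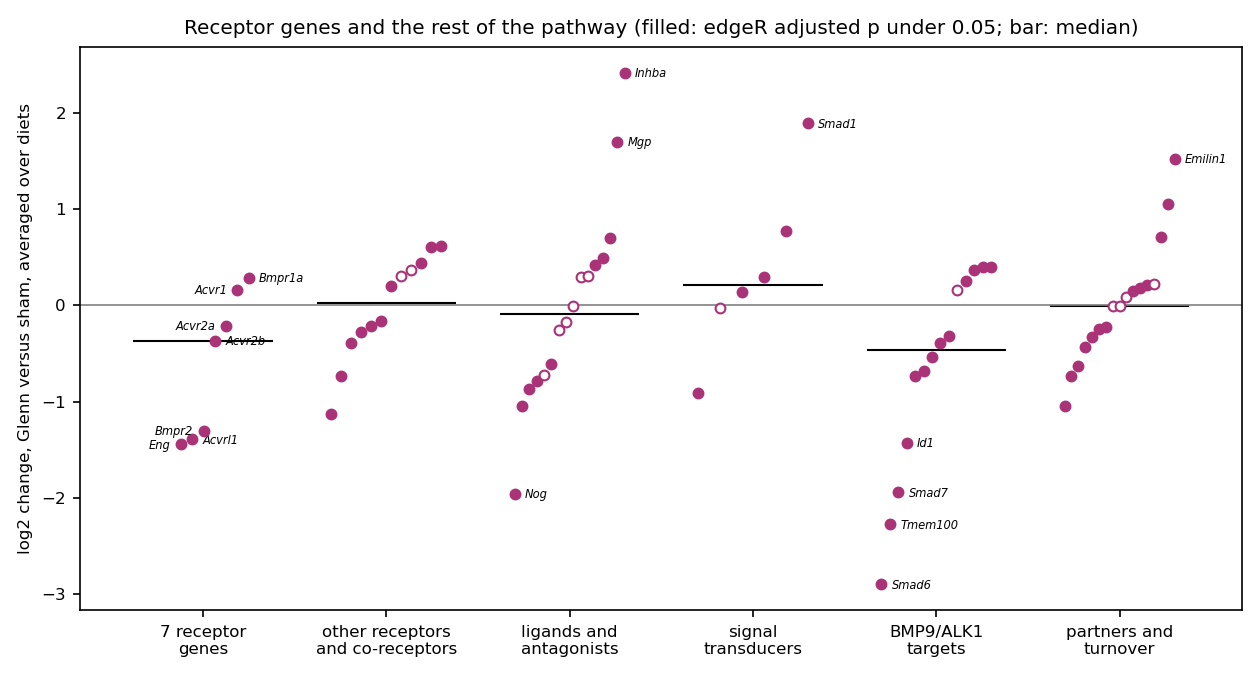
Log2 change with Glenn surgery averaged over diets (vertical axis) for the 7 receptor genes and the tested genes of 5 lists of the pathway (horizontal axis), ordered by value within each list, filled where the edgeR test was passed and with the median as a bar. The medians are -0.37 for the receptor genes, 0.02 for other receptors, -0.09 for ligands, 0.21 for transducers, -0.46 for targets and -0.005 for partners.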

How the data were processed

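RNA from sorted CD31+ lung cells was extracted with a PureLink kit and made into libraries with a SMART-Seq low-input kit, per the labels' protocols. The values deposited by the authors are estimated counts per gene, from salmon by the file's own name. The submitters' processing notes also name FastQC, Trim Galore, Picard and STAR, with the builds mRatBN7.2 and rn7. Tool versions, the annotation release and strandedness are not given in the sources used here, so reads from overlapping or antisense genes cannot be told apart. Of all values 13.6% were not whole, and counts were rounded.

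Genes were kept by filterByExpr (minimum count 10, minimum total 15) and scaled by TMM in edgeR 4.0.16. One quasi-likelihood fit (R 4.3.3) held the 6 group means and the library number range, with Benjamini-Hochberg adjustment over 16171 genes and a threshold of 0.05. Ratios of counts (0.5 added) and correlations of log2(CPM + 1) were tested by permutation in Python 3.11.15 with numpy 2.4.6, and ranks were taken with scipy 1.17.1. DESeq2 1.42.0 and limma 3.58.1 served as alternatives, and figures were drawn with matplotlib 3.10.9. On simulated data for the contrast averaged over diets, with 200 changed among 15978 genes, edgeR recovered 135 with 5 false calls: 21 of 50 at 1.2-fold, 31 at 1.5-fold, 41 at 2-fold and 42 at 3-fold. limma voom recovered 134 with 7 false calls and DESeq2 140 with 17. The simulation changed far fewer genes than the 48.2% that passed in the data. It also held no effect of the number range or of cell mixture, so these rates need not hold for the data.

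The 7 genes, the pathway lists and the marker lists were chosen with earlier results of these data known. Named beside the 7 genes are the 3 genes of each pathway list with the smallest adjusted p averaged over diets, Pecam1, Cdh5 and the 3 genes most like each member. Gdf2, as the gene of BMP9, and Hey1, Hes1, Dll4, Gja5, Gja4 and Hey2 are named outside that rule, after their values were seen. Alternatives were no range term, the lower range alone, other scaling, tools and filters, only the compared groups, a replicate block, terms for RT1-CE16 level or sex, marker scores, and each library left out. Chosen after seeing the data were fits within the RT1-CE16 levels (above or below 100 CPM) and within the higher range.

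Of the marker lists, the arterial genes were 4 higher and 1 lower of 5, venous 1 and 3 of 5, type I alveolar 4 and 1 of 5, mesothelial 0 and 0 of 4, leukocyte 0 and 2 of 4 tested and erythroid 2 and 0 of 2.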

Additional observations from a re-analysis of the deposited data

Results flagged for a closer look

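In 6 of 42 sets of 5 libraries (7 genes in 6 groups) the highest or lowest library stood apart by Dixon's test, which compares its gap to the nearest other library with the range of the group. Chance alone gives about 1 set in 20, or 2.1 of 42. Replicate 1 of the Glenn deficient group was high in Acvrl1 (gap over range 0.79, 795 CPM against 562 to 611 CPM in the other 4) and in Eng (0.846, 1048 CPM against 756 to 801 CPM). Replicate 1 of the Glenn excess group was high in Eng (0.726, 1330 CPM against 749 to 908 CPM). Without it the difference between the excess and control diets after Glenn surgery was no longer past the threshold for Acvrl1 or Eng. Replicate 1 of the Glenn control group was high in Acvr1 (0.933, 40.1 CPM against 33.9 to 34.3 CPM). Replicate 5 of the Glenn excess group was low in Acvr2a (0.75, 20.02 CPM against 29.8 to 33.0 CPM), and replicate 3 of the Glenn deficient group was low in Acvr2b (0.736, 4.78 CPM against 6.09 to 6.56 CPM).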

How the results depend on the processing

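Acvrl1, Eng and Bmpr2 kept their direction and passed the threshold in the average over diets and on each diet in every alternative that could be fitted. The median of all genes stayed between -0.03 and 0.02 (log2). The count averaged over diets, 7, became 3 with marker scores as covariates and 4 in the libraries low in RT1-CE16. The 2 genes higher on the excess than the control diet after Glenn surgery became 0 with no range term, with only the groups compared, with the RT1-CE16 term, with marker scores, and in the libraries low or high in RT1-CE16. With each library left out in turn, the counts ran from 7 to 7 averaged over diets, 3 to 5 on the control diet, 3 to 4 on the deficient one and 3 to 5 on the excess one, 0 to 2 for excess against control after Glenn surgery, 0 to 0 for the other diet and interaction tests, and 36 to 40 for the ratios. The 37 ratio combinations became 12 in the lower number range, which leaves 2 against 3 libraries on the deficient and 5 against 2 on the excess diet. Among the ratios given above, the lowest adjusted p of the exact permutation test on these diets was then 0.158 and 0.115. So few libraries could not pass this test whatever the values, so no conclusion is drawn from the lower count. The 2 pairs of genes became 0 without the 2 libraries farthest from the median. Signs turned for Bmpr1a on the excess diet (-0.0020 in the lower range, -0.0025 in the libraries low in RT1-CE16, -0.0050 with only its groups), Pecam1 (0.014 and 0.094 in the same subsets), Acvr2b on the control diet (0.022 low in RT1-CE16), Eng for excess against deficient after Glenn surgery (-0.031 with marker scores) and the Bmpr2 difference of the surgery effect, deficient minus control (-0.088 low in RT1-CE16). The lower range and the libraries low in RT1-CE16 hold the same libraries on the deficient and excess diets, so they are not separate checks there. In the lower range the ratio of Eng to Acvrl1 on the deficient diet became -0.042, and that of Acvrl1 to Bmpr2 became 0.016 on that diet and 0.15 on the excess diet. With single libraries left out, Bmpr2 for deficient against control after Glenn surgery ran from -0.0095 to 0.14, Eng to Acvrl1 on the control diet from -0.11 to 0.018 and Acvrl1 to Bmpr2 on the excess diet from -0.12 to 0.049. The cause of these shifts was not tested. The labels do not say that a replicate number marks a shared animal, day or batch. Same-numbered libraries had a mean correlation of deviations of 0.096 (lowest -0.25), against -0.024 for differently numbered ones. Of 30 libraries 17 were closest to their own number, a hint of pairing from the data and not from the design. Ddx3y, a gene of the Y chromosome, was above 10 CPM in replicate 1 and below it in replicate 2 of every group. RT1-CE16 was below 100 CPM in both replicates of every group. Each group held 2 or 3 libraries with Ddx3y above 10 CPM. Whether shared sex or RT1-CE16 level underlies the likeness of same-numbered libraries was not tested. As not every pair was above 0.1, the fit without the block was kept. With the replicate block, excess against control after Glenn surgery gave 0 of the 7 genes (34 genes in all, in place of 237), the excess diet gave 3 in place of 4 (Acvr2b lost, -0.48, adjusted p 0.0579), and 7 still passed averaged over diets.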
